A study of Mus musculus with 2 samples.

Results

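The loci of 2 genes, Isl1 and Tal1, were examined in a map of Flag-tagged Hes5 on the mouse genome, made by chromatin immunoprecipitation followed by sequencing (ChIP-seq). Peaks were counted when their centre lay in a window of 0.5 Mb that held the gene's stated position. The window ran from 116.85 to 117.35 Mb on chromosome 13 for Isl1 and from 114.50 to 115.00 Mb on chromosome 4 for Tal1. Of the 6505 listed peaks, 6 met this rule, 1 in the Isl1 window and 5 in the Tal1 window. An Isl1 or Tal1 peak below means a peak of that window, not one assigned to the gene. The gene positions were 117.09 Mb for Isl1 and 114.73 Mb for Tal1. Windows and positions were set for the mouse build mm9. Each position is given to 0.01 Mb as a place near the gene, without saying which part of the gene it marks. A rounding of 5 kb to either side was assumed below, and the distance to the gene itself may differ by more. The windows and positions were not computed from the peak scores but were chosen with earlier results of these data known. The shares given below are therefore descriptions of loci that were not picked blind. The cells came from the AinV/Bry-GFP embryonic stem cell line. Cells positive for the green fluorescent protein reporter of Brachyury, an early mesoderm gene, were sorted from embryoid bodies on differentiation day 3.75 and cultured for 48 h with or without doxycycline (Dox). The cells with Dox expressed Flag-Hes5, and those without Dox were the negative control for the anti-Flag pulldown. Each of the 2 conditions had 1 library, and the peak list analysed here is that of the library with Dox. The control library entered no step of this work, so signal from Flag-Hes5 and background could not be told apart, and no difference between conditions could be tested. The cell identity given in the labels could not be checked either, since a peak list holds no expression values.

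The title of the study names a cardiac fate as the outcome of transient Hes5 activity. Isl1 encodes a transcription factor with a homeodomain and LIM domains that is known as a marker of the progenitors of the second heart field. Tal1, also called Scl, encodes a basic helix-loop-helix transcription factor that blood formation in the embryo requires. Heart and blood both arise from mesoderm that expresses Brachyury. Hes5 is itself a basic helix-loop-helix protein, a repressor that acts downstream of Notch receptors, and members of its family are known to bind the N-box and E-boxes. What the study's paper reports of either gene was not used here.

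The Isl1 window held a single peak (NCBI gene 16392). It lay on chromosome 13 from 117099937 to 117100332 on mm9, a width of 396 bp. Its centre was 10.1 kb above the stated Isl1 position, and the assumed rounding of 5 kb gives distances from 5.13 to 15.1 kb. The RefSeq gene spans 11419 bases in the GRCm38.p6 table, the same order as this distance. Whether the peak lay inside the gene, at its start or outside it could therefore not be told, and no mm9 annotation was used here. Points laid every 10 kb over the listed span of chromosome 13 had a median distance of 284 kb to their nearest peak centre. A peak as near as that of Isl1 was found for 3.43% of the 11669 points, and for 1.77% to 5.06% over the rounding. The stated Isl1 position thus lay closer to a peak than most of the chromosome. The points were not gene starts, and how near genes in general lie to a peak was not counted.

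The Isl1 peak was not among the strong peaks of the list. Its score, the value the authors' peak caller gave it on a scale that is not stated, was 208.57, against a median of 247 over the list and 249 over the peaks of chromosome 13. It ranked 4125 in the list and 147 on its chromosome, and 36.5% of all listed peaks scored lower. The peak was also set beside peaks of its own width. Among the 1781 other peaks whose width was within 10% of it, the median score was 177 and 60.4% scored lower. The score was thus below the middle of the list and above the middle for its width. These are ranks within 1 library and carry no replicate error.

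The Isl1 peak stood alone. The next peak on the lower side was 1851 kb away, from 115248741 to 115249003, and scored 214. The next on the upper side was 713 kb away, from 117813237 to 117813711, with a score of 327. Neighbouring centres on chromosome 13 lay a median of 182 kb apart. The peak-free stretch below Isl1, from 115249004 to 117099936, was the 16th longest of 230 between neighbouring peaks of that chromosome and ranked 258 of 6432 on the autosomes. Counting its nearest neighbour on either side, 3.61% of all listed peaks had a neighbour farther away. The median distance to the nearest neighbour was 59.1 kb over the list and 79.3 kb on chromosome 13, where peaks were sparser. In the RefSeq order of protein-coding genes on GRCm38.p6, Isl1 lies between Pelo and Parp8.

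The sequence before the Isl1 start is shown because motifs of the Hes family can be read in it, although the peak cannot be placed on it. RefSeq gives 1 start for Isl1, and the 250 bases before it lie at chr13:116309689-116309938 on the minus strand of GRCm38.p6, a build whose coordinates cannot be compared with those of the peaks. Capitals mark the generic E-box CANNTG.
Isl1 promoter: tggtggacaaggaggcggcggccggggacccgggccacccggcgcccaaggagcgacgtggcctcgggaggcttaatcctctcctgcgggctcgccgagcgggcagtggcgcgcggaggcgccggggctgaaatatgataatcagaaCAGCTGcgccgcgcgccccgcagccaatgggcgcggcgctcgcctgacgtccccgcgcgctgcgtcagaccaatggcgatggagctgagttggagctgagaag
The stretch was rich in G and C, at 71.2%, and held 33 CG dinucleotides. Of 32851 RefSeq promoter stretches of the same length, 92.2% had less G and C and 96.0% had fewer CG dinucleotides. The 3 motifs searched for Hes factors, on both strands, were absent from it. The first was the palindromic E-box CACGTG, found in 6.02% of all promoter stretches. The class C E-box, with the letters CACGCG on one strand, was found in 7.62% of them. The N-box, with the letters CACNAG on one strand, was found in 36.7%. A single generic E-box, with the 2 free letters G and C, began 103 bases before the start. The generic motif, which takes in the palindromic E-box, was added after the sequences were seen and occurs in 66.2% of the stretches.

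**Figure D1:**
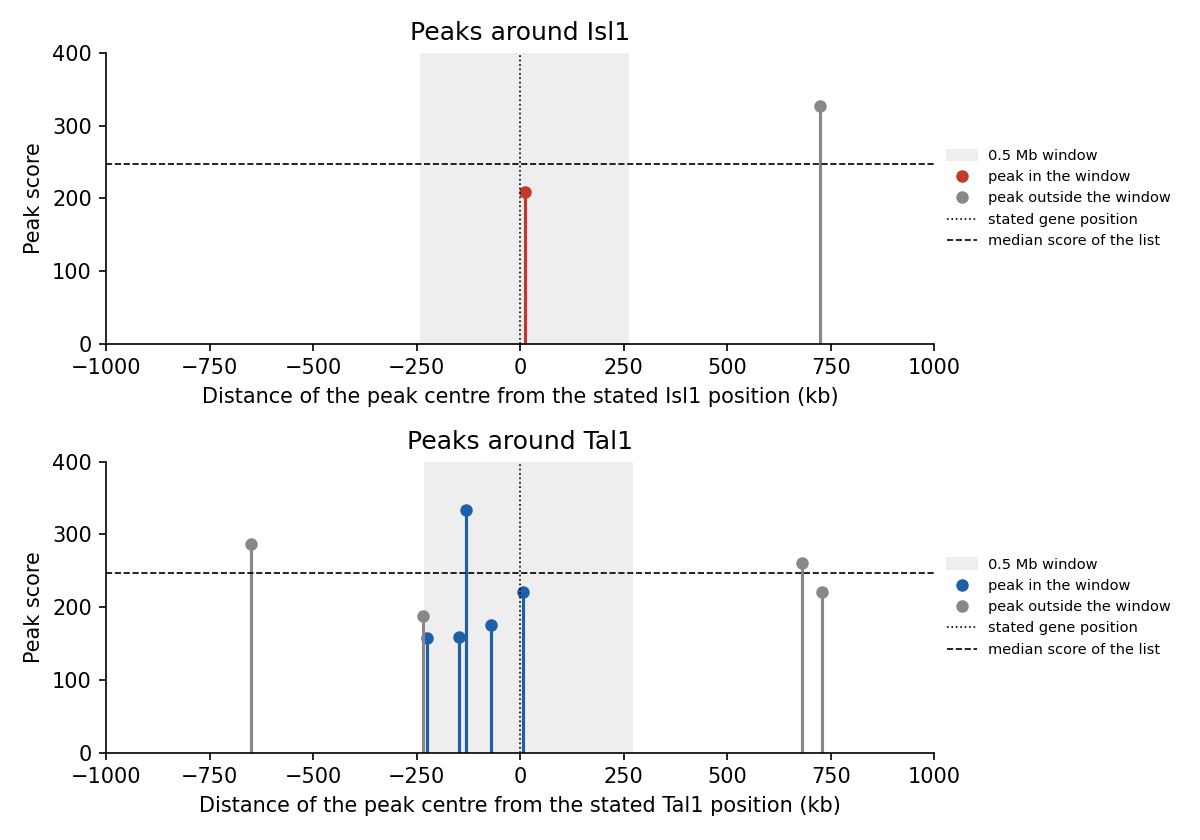
Peaks within 1000 kb of the stated positions of Isl1 (upper panel) and Tal1 (lower panel), with the distance of the peak centre in kb on the horizontal axis and the score of the authors' peak caller on the vertical axis. The single Isl1 peak lies 10.1 kb from the stated position with no other peak in the window, and the 5 Tal1 peaks lie from 225 kb below to 5.96 kb above it, 4 of them under the dashed median score of the list.

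The Tal1 window (NCBI gene 21349) held 5 peaks, of which 4 were below the list's median in score and 4 in width. The peak nearest to the stated Tal1 position lay on chromosome 4 from 114735839 to 114736088, a width of 250 bp, and scored 220. Its centre was 5.96 kb above the position, with 0.963 to 11.0 kb over the assumed rounding. The RefSeq gene spans 15330 bases in the GRCm38.p6 table, so the same limit holds as for Isl1, and the peak could be inside the gene or outside it. On chromosome 4 the points laid every 10 kb had a median distance of 214 kb to a peak. A peak as near as that of Tal1 was found for 3.17% of the 15246 points, and for 0.597% to 5.8% over the rounding. Both genes thus had a peak nearer than most of their own chromosome, and both of these peaks scored below the list's median. The nearest peak at or above that median lay 723 kb from the Isl1 position and 132 kb from the Tal1 position.

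The other 4 peaks of the Tal1 window lay on the lower side of the stated position. The strongest of the 5, from 114597729 to 114598181, scored 334 at a width of 453 bp, and its centre was 132 kb below the position. It ranked 2199 in the list and was the only peak of the window above the list's median score. The peak closest to it, from 114581220 to 114581593, scored 158 with its centre 149 kb below. The peak from 114659362 to 114659619 scored 175 and lay 70.5 kb below. The fifth, from 114504732 to 114505064, scored 157, ranked 5435 and lay 225 kb below. Of the 5 scores, 4 were under the list median of 247 and 3 were under the lower quartile of 176. In the RefSeq order of GRCm38.p6, the protein-coding genes before Tal1 are Foxd2, Foxe3, Cmpk1 and Stil, and those after it are Pdzk1ip1 and Cyp4x1. Stil is the immediate neighbour on the side that comes first in that order. Peaks were not assigned to any of these genes, so the 5 peaks are those of a 0.5 Mb stretch and not of Tal1 alone.

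Widths in the Tal1 window ran from 250 to 453 bp with a median of 333 bp, against 407 bp over the list, and 4 of the 5 were narrower than that. Set beside peaks of similar width, the strongest peak scored above 71.7% of 1246 others. The peak nearest to Tal1 scored above 45.5% of 486 others, whose median was 225. The remaining 3 scored above 20.5% to 35.1% of theirs. Neither locus therefore held a peak that stood out for its width. In the plot of score against width all 6 peaks lie within the cloud of the other peaks.

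**Figure D2:**
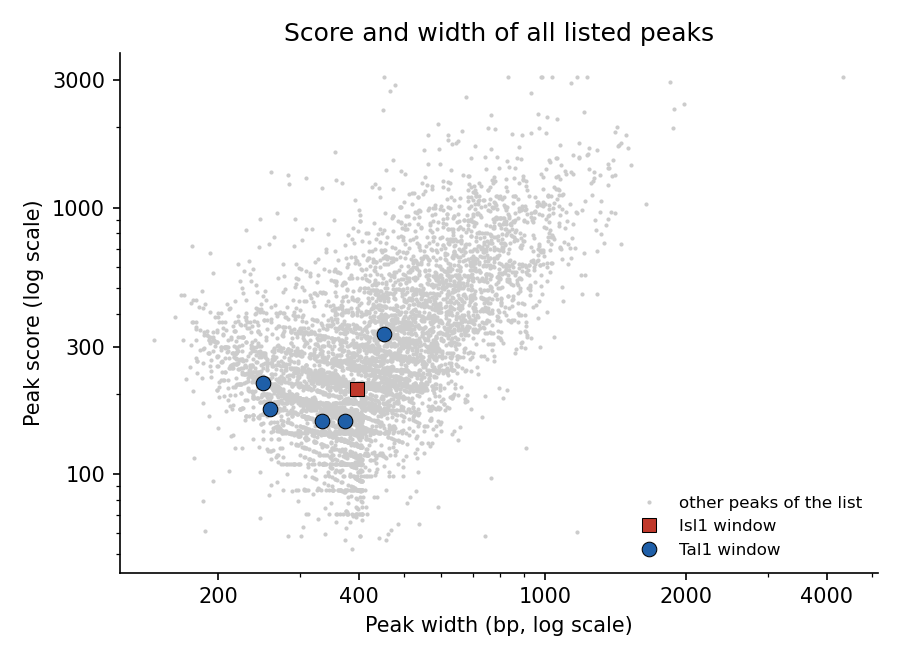
Score against width (bp) for every listed peak, both on log scales, with the Isl1 peak as a square, the 5 Tal1 peaks as circles and all other peaks as grey points. The 6 marked peaks have scores from 157 to 334 and widths from 250 to 453 bp and lie inside the spread of the list, whose scores reach 3100.

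The lower edge of the Tal1 window fell within a pair of close peaks. The fifth peak lay 4.90 kb inside that edge. A further peak with a score of 188, from 114494556 to 114494846, lay 5.30 kb outside it, and the centres of this pair were 10.2 kb apart. Within the window, neighbouring centres were 16.5 to 76.5 kb apart, shorter than the median of 108 kb between neighbours on chromosome 4. Beyond the peak nearest to Tal1 no other centre followed for 675 kb, until the peak from 115410431 to 115410794 with a score of 261. On the lower side these peaks were preceded by one 651 kb below the stated position, from 114078409 to 114078707, with a score of 287. Before that came a peak-free stretch of 2.99 Mb, from 111088130 to 114078408, the 9th longest of 454 on chromosome 4. The uppermost peak of the Tal1 window was thus the one nearest to the gene's stated position.

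RefSeq gives 2 starts for Tal1, and motifs differed between them. The 250 bases before the first are shown for comparison with Isl1. They lie at chr4:115056176-115056425 on the plus strand of GRCm38.p6, and no letter is capital because none of the 4 motifs was found.
Tal1 promoter, first start: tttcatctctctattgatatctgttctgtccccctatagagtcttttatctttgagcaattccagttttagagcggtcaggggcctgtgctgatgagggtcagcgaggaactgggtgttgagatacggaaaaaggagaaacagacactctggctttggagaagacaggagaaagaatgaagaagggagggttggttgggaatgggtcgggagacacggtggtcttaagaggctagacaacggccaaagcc
With 48.8% G and C and 6 CG dinucleotides, this stretch was near the middle of all promoter stretches, whose medians were 52.4% and 6. The stretch before the second start had 62.8% G and C and 16 CG dinucleotides. It held 2 N-box matches, beginning 220 and 60 bases before that start, both in the orientation that reads CTNGTG on the printed strand, with G at the free position. They are shown with their flanks, the match in capitals, at chr4:115057582-115057605 and chr4:115057742-115057765 on the plus strand.
Tal1 second start, farther N-box: atcgaggcgCTGGTGggggcgtca
Tal1 second start, nearer N-box: gggggtcccCTGGTGtgtgcgggg
The N-box was thus found at 1 of the 2 Tal1 starts and not at the Isl1 start, in a motif that 36.7% of all promoter stretches hold. A match describes these letters only, and whether the peaks cover them was not examined, since no mm9 sequence was used here.

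The same motifs were counted before the starts of 12 genes of heart development and 12 of blood and its precursors. The cardiac list (Isl1, Nkx2-5, Gata4, Mesp1, Tbx5, Tbx20, Hand1, Hand2, Mef2c, Hcn4, Fgf8, Fgf10) had 8 genes with 10 starts in the RefSeq promoter table. Genes of the list without a start there were not counted. None of the 10 starts held the palindromic E-box, the class C E-box or the N-box. Of all promoter stretches, 6.02%, 7.62% and 36.7% hold them. The generic E-box was found at 7 of the 10, against 66.2% of all promoter stretches. The blood list (Tal1, Lmo2, Gata1, Gata2, Runx1, Klf1, Etv2, Fli1, Gfi1b, Kdr, Hbb-bh1, Hba-x) had 9 genes with 12 starts. The N-box was found at 4 of the 12, in Tal1, in Gata1 and Gata2, which encode blood transcription factors, and in Kdr, the receptor gene of the shared blood and vessel precursor. This count is near the 36.7% of all promoter stretches that hold it. The palindromic E-box was found at 1, in Runx1, a transcription factor gene of definitive blood, against 6.02% of all stretches. The class C E-box was found at none, against 7.62%. The generic E-box was found at 6 of the 12. With so few starts these counts are a description of the lists and were not tested, and several starts belong to the same gene.

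The peak numbers of both windows were set beside every window of 0.5 Mb laid each 50 kb over the listed span of the same chromosome. On chromosome 13, 46.8% of 2324 windows held at least 1 peak, as the Isl1 window did, and 53.2% were empty. The number of peaks at Isl1 was therefore ordinary for its chromosome. On chromosome 4, 8.98% of 3040 windows held at least 5 peaks, as the Tal1 window did. The median there was 1 peak and the highest number 16. How full the Tal1 window was for its chromosome changed with the window taken. The share with at least as many peaks was 4.93% for a window centred on the stated position, 19.5% with the window halved and 20.6% with it doubled. Counting only peaks at or above the list's median score, it was 41.6%. Of the 123 windows of chromosome 4 with exactly 5 peaks, 85.4% held a higher top score than the 334 of the Tal1 window, and their median top score was 604. Of the 489 windows of chromosome 13 with exactly 1 peak, 64.6% held a higher score than the Isl1 peak. Overlapping windows share peaks, so these shares describe the chromosomes and carry no test.

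**Figure D3:**
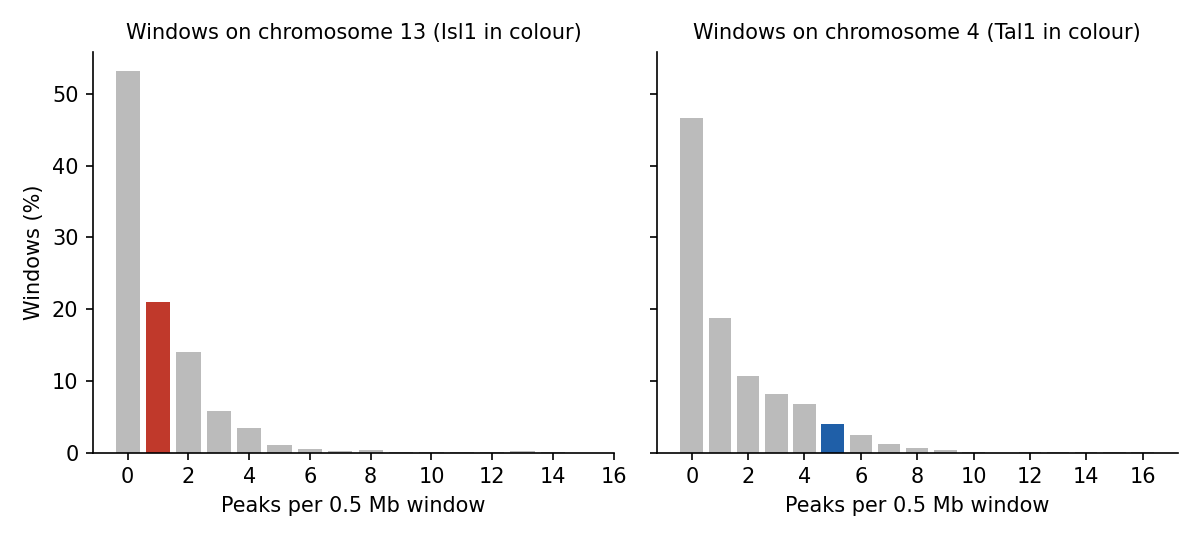
Share of 0.5 Mb windows (%) by the number of peaks they hold, on chromosome 13 (left) and chromosome 4 (right), with the bar of the Isl1 window (1 peak) and of the Tal1 window (5 peaks) in colour. Empty windows are the tallest bar on both, at 53.2% and 46.6%.

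How far the difference between the loci reached depended on the distance taken around the gene. Within 10 kb of the stated position Tal1 had 1 peak, and 5.25% of points on chromosome 4 had at least 1. Isl1 had 0, as 96.6% of points on chromosome 13 had. Rounding of the stated positions alone can change both of these counts. Within 50 kb each gene had 1 peak, and 15.1% of points on chromosome 13 and 21.2% on chromosome 4 had at least 1. Within 100 kb Isl1 had 1 peak and Tal1 had 2. At least as many were found for 26.0% of points on chromosome 13 and 15.5% on chromosome 4. Within 250 kb the numbers were 1 and 6, against means of 0.982 over points of chromosome 13 and 1.47 over points of chromosome 4. Within 2500 kb Isl1 had 4 peaks, against a mean of 10.2, and 93.1% of points on chromosome 13 had at least as many. Tal1 had 17, against a mean of 14.5, and 32.9% of points on chromosome 4 had at least as many. The neighbourhood of Isl1 was thus poorer in peaks than most of its chromosome at the widest distance. Within 250 kb, 4.99% of points on chromosome 4 had at least the 6 peaks of Tal1. On chromosome 13, 46.5% had at least the 1 peak of Isl1. The share for Tal1 was larger at wider distances, at 20.6% for its 6 peaks within 500 kb and 27.1% for its 9 within 1000 kb. For Isl1 these shares were 66.0% for 1 peak and 74.9% for 2. Chromosome 4 had 2.98 listed peaks per Mb and chromosome 13 had 1.98, so the genes were each compared with their own chromosome. Peaks of 1 library are not replicates, and the difference between 1 and 5 peaks was not tested.

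**Figure D4:**
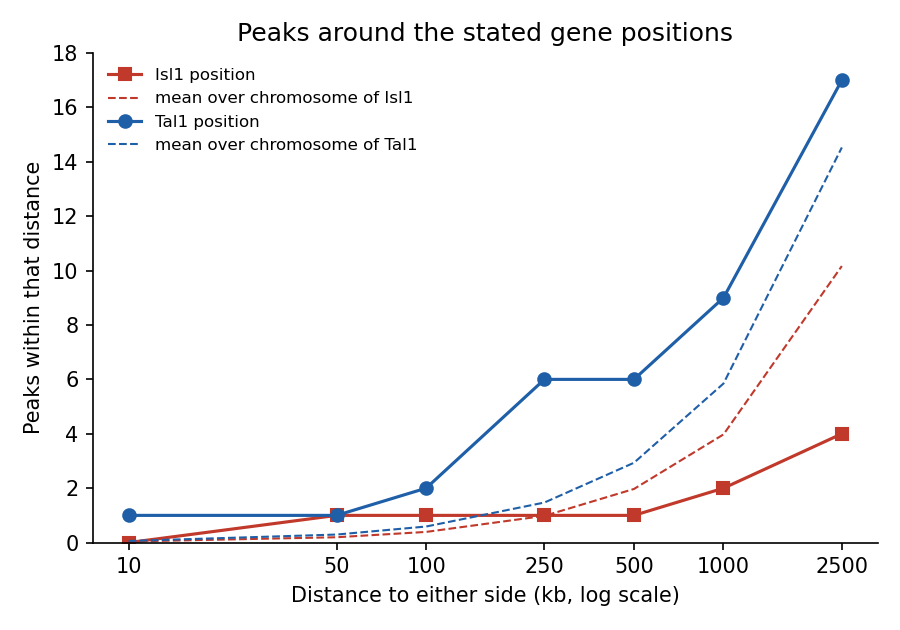
Number of peaks within a given distance to either side of the stated gene position (kb, log scale), as solid lines for Isl1 (squares) and Tal1 (circles), and the mean over points of the same chromosome as dashed lines. The Tal1 line rises to 6 peaks at 250 kb while the Isl1 line starts at 0 at 10 kb and is at 1 from 50 to 500 kb.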

How the data were processed

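The data were 1 peak list, for the library with Dox, with 5 columns and no header. Per the submitters' processing notes, Bowtie 1.0, HOMER and mm9 were used, without stated roles. Peak names carry the prefix MACS; the sources used here give neither its version and settings nor any use of the control library in calling. The deposited score is the authors' 1 value for each peak, with no stated scale. The list holds no counts, so the depth is unknown. Starts in the list count from 0, and printed positions count from 1.

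The groups came from the sample titles. The windows and gene positions were taken from the rule that defines the loci; these and the gene lists were chosen with earlier results of these data known. Every peak in the windows was named. Complete tilings of the chromosomes, between their outermost peaks, replaced random windows, and no p-value was computed. The comparison with widths within 10% and the counts by distance were added after the peaks were seen. Promoter sequences and gene order came from RefSeq tables of GRCm38.p6, from which no position was carried to mm9; the planned counts near gene starts and motifs within peaks were not run. The scripts were tested on simulated data. Python 3.11.15, numpy 2.4.6, pandas 2.3.3, scipy 1.17.1 and matplotlib 3.10.9 were used.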

Additional observations from a re-analysis of the deposited data

How the results depend on the processing

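Of 40 alternatives, 32 planned and 8 chosen after seeing the data, 18 left the value the same (counts within 1.5 times, shares within the 95% Wilson interval, others equal) and 22 moved it. That interval treats windows as independent although they overlap and share peaks, so it is too narrow. The labels for shares are therefore a way of sorting and carry no test. With scores at or above the list's median, the Isl1 window held 0 peaks, the nearest peak was 723 kb away and the share of windows with at least as many was 100.0%; the Tal1 window held 1 peak, the nearest 132 kb away, and the share was 41.6%. With the window halved the shares were 30.5% for Isl1 and 19.5% for Tal1, whose window then held 2 peaks with a top score of 220; doubled, they were 66.1% and 20.6%. Over all autosomes they were 52.3% and 7.19%. Centred on the stated position, the Tal1 window held 6 peaks and its share was 4.93%, and with centres within 1 kb merged the share was 7.37%. To the nearest edge of a peak the distances were 9.94 kb for Isl1 and 5.84 kb for Tal1. With the stated position 5 kb lower they were 15.1 and 11.0 kb, and 5 kb higher 5.13 and 0.963 kb. These shifts follow from the alternatives' construction. No paired analysis was possible because each condition has 1 library and 1 has a peak list here. Without depth, nothing can be said of sites that were not listed.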
